A study of Prunus dulcis and Prunus persica and Prunus persica x Prunus dulcis with 15 samples.

Results

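LTR_28, LTR_53, LTR_88, LTR_99, LTR_124 and LTR_141 are 6 families of LTR retrotransposons whose RNA was more abundant in leaves of almond than in leaves of peach. They were chosen by that difference between the parents, so the almond and peach levels below describe the choice and are not a finding about it. They are 6 of the 14 LTR retrotransposon families and 6 of the 60 transposable element (TE) families in a count table of 22334 features, the remainder being gene models. The hybrid is MB 1.37, a single interspecific F1 of peach and almond, and its parents' species were represented by almond (Prunus dulcis cv Texas) and peach (Prunus persica cv Early Gold). All 3 genotypes were normally watered field trees, sampled as fully expanded leaves at the end of September, with no treatment applied to any of them. Stranded mRNA libraries were sequenced from 3 biological replicates of each genotype, 9 libraries in all, and bisulphite libraries from 2 replicates of each. Since 1 hybrid genotype and 1 cultivar of each species were used, the spread between replicates covers these genotypes only.

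LTR retrotransposons are mobile elements that multiply through an RNA intermediate. The long terminal repeats at their ends carry the promoter, and the RNA made from it is reverse transcribed and inserted elsewhere in the genome. Plant genomes hold most copies silent through DNA methylation in the CG, CHG and CHH contexts (H being A, C or T), partly directed by small RNAs, and the joining of diverged genomes in an interspecific cross has long been discussed as a situation that might release this silencing. In the study's annotation LTR_53, LTR_88, LTR_99 and LTR_141 belong to the Copia superfamily, LTR_28 to the Gypsy superfamily, and LTR_124 is unclassified. Copia and Gypsy elements differ in the order of the enzyme domains in their polyprotein.

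The RNA of each family was counted on 1 representative genomic copy, and for all 6 families that copy came from the almond genome. On the study's almond assembly the LTR_28 copy spans Pd01:21707300-21712812 on the minus strand (5513 bp), the LTR_53 copy Pd04:1017052-1021980 on the plus strand (4929 bp) and the LTR_88 copy pdulcis26_s1284:15753-20542 on the plus strand (4790 bp). The LTR_99 copy spans Pd02:15147254-15152054 on the minus strand (4801 bp), the LTR_124 copy Pd07:21257163-21260133 on the minus strand (2971 bp) and the LTR_141 copy pdulcis26_s1172:18132-22608 on the minus strand (4477 bp). Pd01 to Pd08 are chromosomes and the other names are unplaced scaffolds. Gene positions on this assembly were not analysed here. Because the reads were aligned to almond copies, a lower level in peach and a poorer match of peach transcripts to the almond sequence cannot be told apart, and the same holds for the peach genome's part of the hybrid RNA. For LTR_99 the paper reports full-length copies in almond but not in peach, and relates this to the higher almond level. Copy numbers were not analysed here.

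The study used RT-PCR oligonucleotides to identify the transcribed copies of several of these families. It measured levels of LTR retrotransposon families by qRT-PCR with partly different pairs, and reports that these were in general agreement with its RNA-seq. Of the families described here, qRT-PCR pairs are listed for LTR_53, LTR_88, LTR_124 and LTR_141, and none for LTR_28 or LTR_99. The RT-PCR pairs for LTR_88, LTR_124 and LTR_141 are shown, 5′ to 3′, because these 3 families are the ones called lower in the hybrid than in almond. All 6 oligonucleotides are 20 bases long.
LTR_88 forward: taatggtgtccaatctggct
LTR_88 reverse: ttacatgagaagggaatgcc
LTR_124 forward: ggatgaagcttggtgtgatg
LTR_124 reverse: agataagttgtccatagaac
LTR_141 forward: cctttagctactaacctggc
LTR_141 reverse: gtcctactcatgctgtgaag

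The libraries held 14971526 to 35450910 counts, all of them even because a read pair counts as 2, so the depth was 7485763 to 17725455 read pairs. Almond replicates 1 and 3 were the shallowest libraries and almond replicate 2 the deepest. Levels are given as CPM, the counts of a family scaled to the library total multiplied by edgeR's TMM factor (0.943 to 1.05 over the libraries), and the tests used the same scaling. Replicates of a genotype correlated at 0.946 to 0.972 over log2 counts and differed by 10.8 to 46.8 times counting noise (chi-square per degree of freedom), so each was kept as a sample of its own. Of 412 genes called higher in almond and not detected in peach, 88.6% were detected in the hybrid, and of 541 genes with the opposite pattern 93.5% were, so the hybrid libraries hold RNA of both parental genomes. A family was taken as not detected in a library with at most 6 counts (3 read pairs), a limit that covers counting error only.

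Summed over the 6 families, RNA amounted to 36.3 ± 8.37 CPM in the hybrid, 98.4 ± 19.2 CPM in almond and 5.24 ± 1.55 CPM in peach (SD, n = 3 each). The 3 hybrid libraries lay between 27.2 and 43.6 CPM and the 3 almond libraries between 84.1 and 120.2 CPM, with no overlap. These families made up 7.62 to 8.55% of all TE counts in the hybrid, 12.7 to 17.0% in almond and 1.47 to 1.83% in peach. In bulk leaf RNA, fewer cells transcribing a family and less RNA per cell cannot be told apart.

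The make-up of this sum also differed between hybrid and almond. LTR_28 gave 43.3% of it in the hybrid and 21.1% in almond, and LTR_99 gave 15.5% in the hybrid and 6.26% in almond. LTR_141, the largest contributor in almond at 28.7%, gave 10.1% in the hybrid, and LTR_88 gave 3.22% in the hybrid and 16.3% in almond. Per kilobase of the representative copy, the mean levels in the hybrid ran LTR_28 (2.85 CPM per kb), LTR_53 (1.29), LTR_124 (1.27), LTR_99 (1.17), LTR_141 (0.822) and LTR_88 (0.245). In the hybrid the library ranges of LTR_53, LTR_124, LTR_99 and LTR_141 overlapped one another, from 0.506 to 1.60 CPM per kb, whereas LTR_28 lay above and LTR_88 below all of them. In almond the order was LTR_141 (6.30 CPM per kb), LTR_124 (4.29), LTR_28 (3.77), LTR_88 (3.36), LTR_53 (2.92) and LTR_99 (1.28), and each family's library range overlapped that of its neighbour in this order except for LTR_99, which lay below the others.

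**Figure D1:**
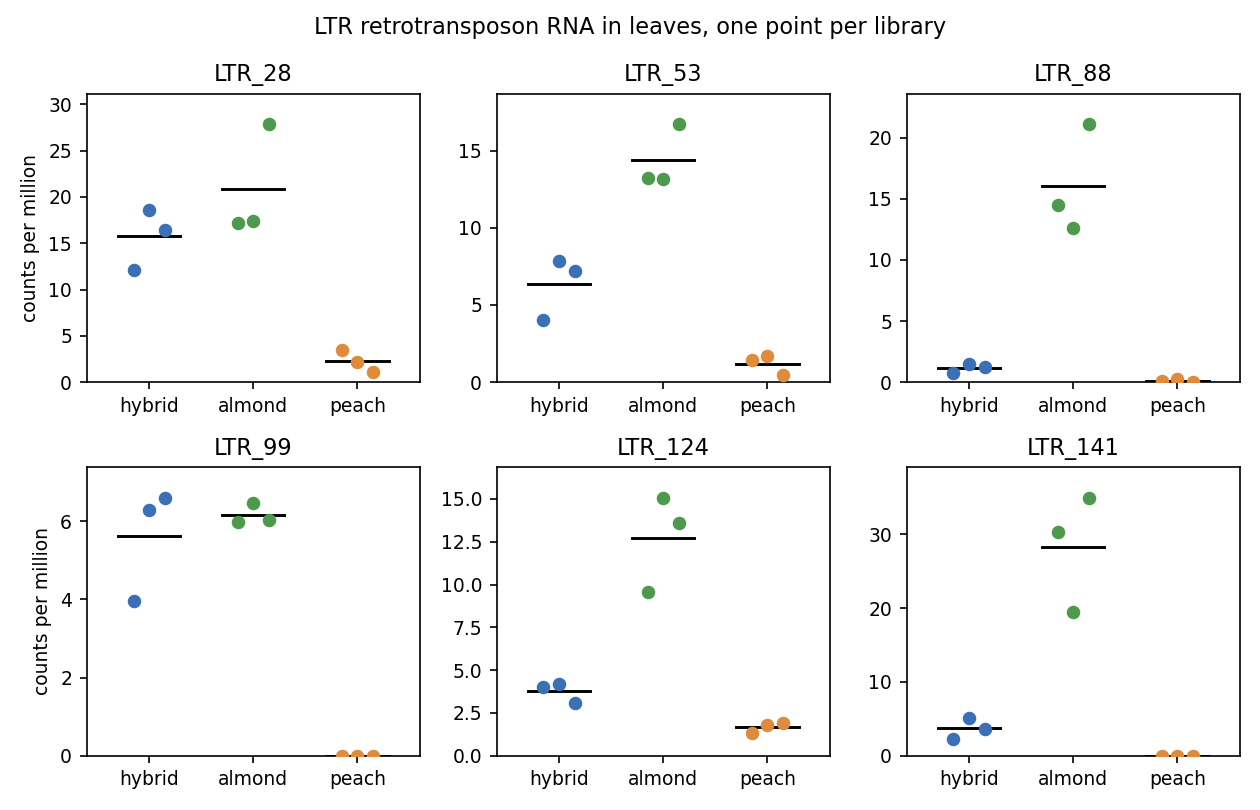
RNA of each family in CPM (vertical axis, from 0, with its own scale in each panel) in the hybrid, almond and peach; each point is 1 library and the black line is the mean of 3. LTR_28 and LTR_99 overlap between hybrid and almond, while the hybrid points of LTR_53, LTR_88, LTR_124 and LTR_141 all lie below the almond points.

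In LTR_99 and LTR_28 the hybrid libraries overlapped those of almond. LTR_99 had 3.96, 6.29 and 6.59 CPM in the hybrid, 5.98, 6.46 and 6.04 CPM in almond and 0 in each peach library. Only hybrid replicate 1 lay below the almond range. LTR_28 had 12.1, 18.6 and 16.4 CPM in the hybrid, 17.2, 17.4 and 27.8 CPM in almond and 3.44, 2.19 and 1.06 CPM in peach. Here almond replicate 3 stood above the other almond libraries and hybrid replicate 2 lay inside the almond range.

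LTR_53 and LTR_124 were intermediate in the hybrid. LTR_53 had 4.02, 7.86 and 7.18 CPM in the hybrid, 13.2, 13.2 and 16.7 CPM in almond and 1.43, 1.72 and 0.466 CPM in peach, and the 3 genotypes did not overlap. LTR_124 had 4.02, 4.19 and 3.09 CPM in the hybrid, 9.55, 15.1 and 13.6 CPM in almond and 1.30, 1.79 and 1.93 CPM in peach. It was the only one of the 6 families whose lowest hybrid library was replicate 3, since hybrid replicate 1 was the lowest for the other 5. Hybrid replicate 1 also had the lowest sum over all TE families of the 3 hybrid libraries, whose sums ran from 356.6 to 511.6 CPM.

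LTR_141 and LTR_88 were scarce in the hybrid although they were well represented in almond. LTR_141 had 2.26, 5.11 and 3.67 CPM in the hybrid, 30.3, 19.4 and 34.9 CPM in almond and 0 in each peach library. The highest hybrid library therefore lay far below the lowest almond library. LTR_88 had 0.754, 1.51 and 1.25 CPM in the hybrid, 14.5, 12.6 and 21.1 CPM in almond and 0.130, 0.265 and 0 CPM in peach. The LTR_88 values rest on 12, 23 and 15 read pairs in the hybrid, 114, 229 and 178 read pairs in almond and 2, 4 and 0 read pairs in peach, so its peach level was near the detection limit.

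The first comparison asked how far the hybrid fell below almond in each family. LTR_88, LTR_141 and LTR_124 fell to 7.31% (95% interval 3.23 to 16.5%), 13.1% (7.50 to 22.8%) and 29.6% (18.9 to 46.4%) of the almond level. With edgeR's quasi-likelihood test, Benjamini-Hochberg adjusted over the 19085 features tested, the log2 fold changes were -3.77 for LTR_88 (SE 0.54, adjusted p = 0.000804), -2.93 for LTR_141 (SE 0.36, adjusted p = 0.000657) and -1.76 for LTR_124 (SE 0.30, adjusted p = 0.00255). LTR_53 had a log2 fold change of -1.18 (SE 0.40, 95% interval -2.06 to -0.30), equal to 44.2% of almond, and missed the threshold in edgeR's test (adjusted p = 0.0902) while passing it with DESeq2 (adjusted p = 0.0355). LTR_28 and LTR_99 had log2 fold changes of -0.40 (95% interval -1.17 to 0.37) and -0.14 (95% interval -0.92 to 0.65), with adjusted p = 0.543 and 0.869 in edgeR's test. These intervals allow a level as low as 44.5% of almond in LTR_28 and 52.7% in LTR_99, so equality with almond was not shown. Tested against the minimum fold change itself (edgeR's glmTreat), LTR_124 was not called (adjusted p = 0.0705) while LTR_88 and LTR_141 were, and LTR_53 was called by edgeR when peach replicate 4 was left out (adjusted p = 0.0227) or when only hybrid and almond libraries were fitted (adjusted p = 0.0287).

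Thus 3 of the 6 families were called lower in the hybrid than in almond (adjusted p below 0.05 with a change of 1 or more on the log2 scale), and 0 were called higher by edgeR or by DESeq2, which called 4 lower. At an unadjusted p of 0.05 edgeR had 4 of the 6, all with negative fold changes. Of all 19085 features tested 1.99% were called lower, and of the 49 TE families tested 14.3%, that is 7 families. The median log2 fold change was -1.47 over the 6 families, -0.19 over the TE families and -0.0024 over all features. The almond libraries in this comparison are the ones that also chose the families for high almond levels, so the size of the fall is not independent of the choice. The authors' regularized log2 values, which shrink the differences of low counts, placed the families in the same order, with hybrid minus almond differences of -0.09 for LTR_99, -0.29 for LTR_28, -0.80 for LTR_53, -1.06 for LTR_124, -2.16 for LTR_141 and -2.29 for LTR_88.

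**Figure D2:**
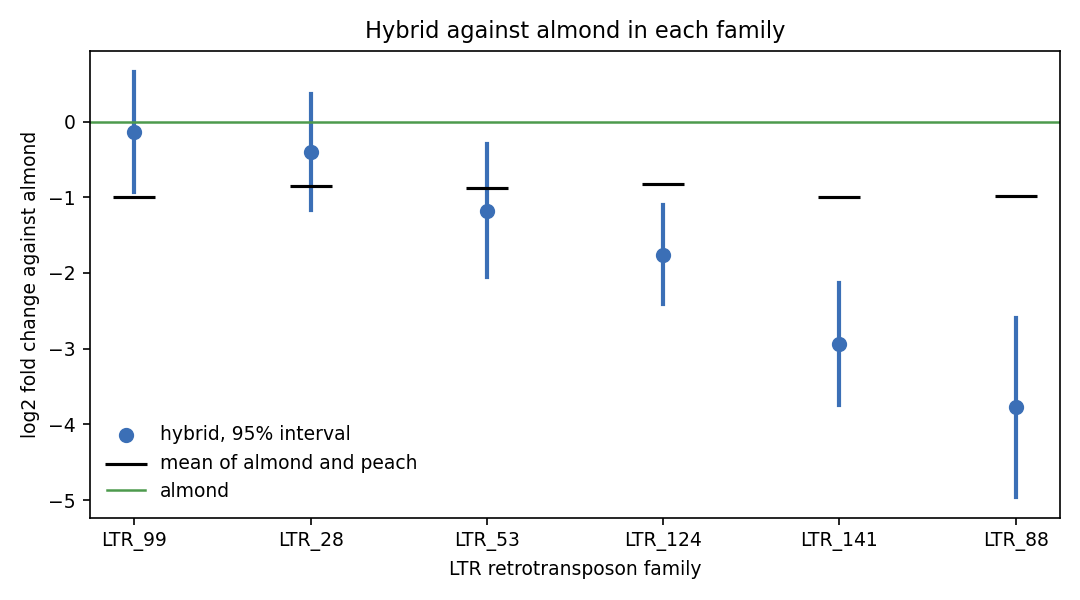
Log2 fold change of the hybrid against almond (vertical axis) for the 6 families, ordered from the smallest to the largest fall; blue points are estimates with 95% intervals, the green line at 0 is almond and the black bars mark the linear mean of almond and peach. The intervals of LTR_124, LTR_141 and LTR_88 lie below the bar, that of LTR_99 lies just above it, and those of LTR_28 and LTR_53 include it. The intervals are those against almond and the bars carry no error, so they do not test the distance from the parental mean. In the edgeR-based test of that distance LTR_124 (adjusted p = 0.173) and LTR_99 (adjusted p = 0.387) did not pass.

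Differences between the families in this fall were examined in the log2 ratio of 2 families within each library (CPM with 0.5 added). Among the 15 pairs, hybrid and almond libraries did not overlap in 13, each of which reached the smallest p that 3 against 3 libraries allow in a two-sided exact permutation test (p = 0.1, adjusted over the pairs 0.115). This test therefore cannot place any single pair past 0.05. The 15 pairs share families and are not independent. No matching count was made for pairs of other TE families or genes, so the 13 pairs have no background share to be set against. The largest contrast was between LTR_99 and LTR_88. The log2 ratio of LTR_99 to LTR_88 was 1.76 to 2.02 in the hybrid libraries and -1.72 to -0.92 in the almond libraries, so the mean ratio differed by 3.15, or by 2.37 with 2 CPM added in place of 0.5. Between LTR_141 and LTR_88, the families with the deepest falls, the ratio differed by 0.51 on average, with 1.14 to 1.48 in the hybrid and 0.60 to 1.04 in almond. With 2 CPM added it differed by 0.086. That value is above the LTR_88 level of every hybrid library (0.754 to 1.51 CPM), so adding it shrinks the distance between these families. In the edgeR fit, without these added values, the log2 fold changes against almond were -3.77 for LTR_88 and -2.93 for LTR_141. Their intervals, -4.95 to -2.60 and -3.74 to -2.13, overlapped, so the size of this distance is uncertain. The pairs that overlapped were LTR_99 with LTR_28, differing by 0.22 (exact p = 0.6), and LTR_53 with LTR_124, differing by 0.46 (exact p = 0.3, adjusted over the pairs 0.321).

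The second comparison set the hybrid against peach. All 6 families were called higher in the hybrid than in peach, against 5.2% of all features and 28.6% of the TE families tested. Since the families were chosen for low peach levels, these same peach libraries bear on the count and nothing further is read from it. LTR_28 had a log2 fold change of 2.81 (95% interval 1.97 to 3.65), LTR_53 of 2.39 (1.44 to 3.34), LTR_88 of 3.10 (1.69 to 4.52) and LTR_124 of 1.17 (0.51 to 1.83), with adjusted p = 0.000724, 0.00453, 0.00991 and 0.0280 in edgeR's quasi-likelihood test. LTR_99 and LTR_141 were not detected in any peach library. Against the detection limit of the peach libraries (0.195 to 0.200 CPM, 6 counts per library), the hybrid level was at least 28.4-fold higher for LTR_99 and at least 18.6-fold higher for LTR_141, and the almond level at least 31.1-fold and 143-fold higher. The LTR_88 value moved to 4.06 without peach replicate 3 and to 2.54 without peach replicate 4, and was called in both fits (adjusted p = 0.00843 and 0.0113 with edgeR). The call for LTR_124 was lost when hybrid replicate 1, hybrid replicate 2, peach replicate 1 or peach replicate 3 was left out (adjusted p = 0.0692, 0.0924, 0.0857 and 0.0628 with edgeR), with the log2 fold change between 1.02 and 1.31 over all 9 omissions. With the hybrid and peach libraries fitted alone, LTR_88 and LTR_124 were not called (adjusted p = 0.0871 and 0.0739 with edgeR). Tested against the minimum fold change itself (edgeR's glmTreat), LTR_88 (adjusted p = 0.0517) and LTR_124 were not called either. The paper classes the hybrid as equal to peach in LTR_88 and LTR_141 and as above peach in the other families, so the calls here differ from it for LTR_88 and LTR_141.

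An F1 holds 1 haploid genome of each parent. A family would lie at the linear mean of the parental levels if every copy were transcribed as in its parent. This also requires each parent to carry the same copies on both of its chromosome sets, which was not tested. The paper describes most almond cultivars as self-incompatible and the almond genome as more variable than that of peach. The third comparison set the hybrid against this mean, with a Wald statistic from the same edgeR fit over 19026 features that could be estimated. LTR_88 reached 14.4% of the parental mean (95% interval 6.81 to 30.6%), a log2 ratio of -2.79 (SE 0.49, adjusted p = 0.0246 in the edgeR-based test), and LTR_141 reached 26.1% (15.5 to 44.1%), a log2 ratio of -1.94 (SE 0.34, adjusted p = 0.0316). LTR_124 stood at 52.3% of the parental mean, with a log2 ratio of -0.94 (95% interval -1.54 to -0.33) that did not pass (adjusted p = 0.173). LTR_53 was at 81.5% (log2 ratio -0.29, 95% interval -1.13 to 0.55) and LTR_28 at 136.7% (log2 ratio 0.45, 95% interval -0.28 to 1.18). LTR_99 was at 182.1% of the parental mean (log2 ratio 0.86, 95% interval 0.07 to 1.65, adjusted p = 0.387), and with no peach counts the parental mean of LTR_99 is 50% of its almond level.

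Accordingly 2 of the 6 families were called below the parental mean, against 0.673% of all features and 4.17% of the 48 TE families with an estimate. The almond and peach libraries that form this mean are also the ones that chose the families, so the count is not independent of the choice. LTR_88 and LTR_141 were the only TE families so called. The median log2 ratio was -0.61 over the 6 families, -0.09 over TE families and -0.03 over all features. Both calls were sensitive to single libraries. LTR_88 lost its call when any 1 of the 3 hybrid or 3 almond libraries was left out (adjusted p 0.0522 to 0.115), and LTR_141 without hybrid replicate 1, hybrid replicate 3, almond replicate 1 or almond replicate 3 (adjusted p 0.0718 to 0.128). The ratios themselves moved less, from -3.00 to -2.51 for LTR_88 and from -2.23 to -1.64 for LTR_141 over the 9 omissions. Set against the mean of the parental levels on the log2 scale instead, LTR_88 had a log2 ratio of -0.34 (adjusted p = 0.850) and LTR_141 one of 3.36 (adjusted p = 0.00896 with edgeR), and the second value depends on the small prior count that stands in for the 0 counts of peach.

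Among the other LTR families, LTR_108 was the nearest in pattern. It is also higher in almond and gave more RNA than the 6 families together, 95.5 CPM in the hybrid, 260.7 CPM in almond and 7.04 CPM in peach. Its hybrid level was 36.6% of almond and 71.4% of the parental mean (log2 ratio -0.49, 95% interval -1.02 to 0.04, adjusted p = 0.498 in the edgeR-based test). LTR_5 and LTR_82 had almond means only slightly above peach, with 0.490 CPM in the hybrid, 1.46 CPM in almond and 1.18 CPM in peach for LTR_5, and 0, 0.197 and 0 CPM for LTR_82, which was too scarce to be tested. LTR_155 was called above the parental mean, with a log2 ratio of 0.81 (95% interval 0.46 to 1.16, adjusted p = 0.0381). Whether the 6 families differ as a group from the other LTR families was not tested.

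**Figure D3:**
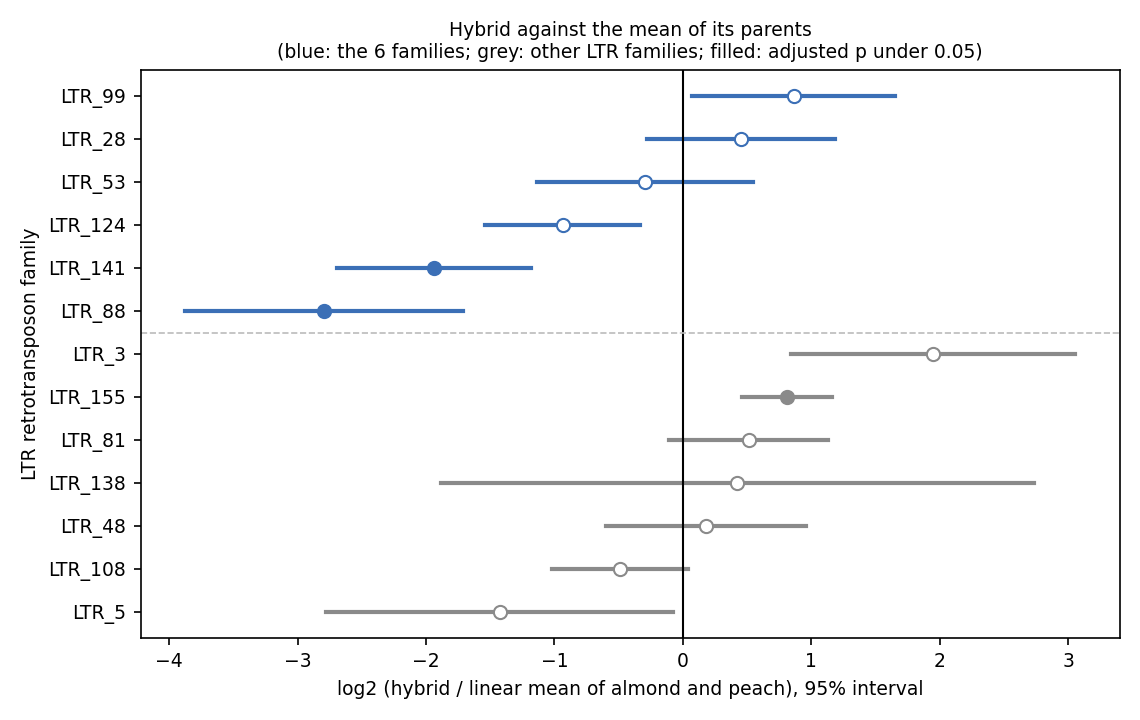
Log2 ratio of the hybrid to the linear mean of almond and peach (horizontal axis) with 95% intervals for the 6 families (blue) and the 7 other LTR families tested (grey); filled points passed an adjusted p of 0.05. The blue families run from 0.86 in LTR_99 to -2.79 in LTR_88, and LTR_88 and LTR_141 are the filled points below 0.

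DNA methylation was available as 1 percentage per TE copy, context and genotype, with the 2 bisulphite replicates pooled and no coverage given, so there is no replicate error and the depth is unknown. The authors' alignment settings allowed hybrid reads from either parental genome to map to the almond genome. A methylation difference at an almond copy and peach-derived reads in the hybrid value therefore cannot be told apart. On the almond genome, 4 of the 6 representative copies were methylated in every context in both hybrid and almond. The LTR_28 copy had 90.0% in the hybrid and 91.4% in almond in the CG context, 74.9% and 69.7% in the CHG context and 8.07% and 13.6% in the CHH context. The LTR_53 copy had 96.5% in the hybrid and 95.6% in almond in CG, 78.9% and 79.2% in CHG and 32.8% and 26.0% in CHH. The CHH level of this copy in almond was above that of 89.6% of the 13736 LTR retrotransposon copies with a CHH value in almond.

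The LTR_99 copy had 86.7% in the hybrid and 92.0% in almond in CG, 70.3% and 81.2% in CHG and 9.44% and 10.1% in CHH. It was the copy with the largest CHG decrease in the hybrid among the 5 measured, at -10.9 percentage points. The LTR_88 copy had 80.6% in the hybrid and 77.9% in almond in CG, 82.4% and 74.7% in CHG and 8.61% and 8.78% in CHH, with a CHG difference of 7.69 percentage points in the opposite direction. Over all LTR copies the hybrid minus almond difference in CHG ran from -13.4 to 10.6 percentage points between the 5th and 95th percentiles (median -0.72), so both copies lay within that range. The corresponding ranges were -9.97 to 5.52 in CG and -5.24 to 7.96 in CHH, and the CHH difference of the LTR_28 copy, -5.50, was the one value of the 5 copies outside its range.

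The LTR_124 copy differed from the others in its pattern. Its CG methylation was 92.4% in the hybrid and 95.5% in almond, but its CHG methylation was 6.92% in the hybrid and 6.73% in almond and its CHH methylation 0.621% and 0.251%. Copies with more than 80% CG, less than 10% CHG and less than 1% CHH methylation in almond numbered 27 of the 12462 LTR copies with all 3 values, or 0.217%, limits set after the values of this copy were seen. In plants, methylation confined to the CG context is commonly found within the bodies of transcribed genes. Whether this bears on the LTR_124 copy was not tested. The paper places this same LTR_124 copy in an intron of a gene, in the orientation of that gene. It names the copy as the source of all or most of the family's transcription. RNA started in the element and RNA of the surrounding gene were not separated here. Of the 12932 LTR copies with a CHG value in almond, 2.27% had a lower CHG level in almond than the LTR_124 copy. The LTR_141 copy had no value in any context or genotype, as did 25.0% of the 18719 LTR copies in the table. For LTR_141 the paper names a different almond copy, on a chromosome and close to a gene, as the source of all or most transcripts. A representative copy therefore need not be the copy that gave the RNA, and these methylation values describe the representative copies only. Their element names occurred on 6 copies for LTR_28, on 3 for LTR_99 and on 1 for each of the others.

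**Figure D4:**
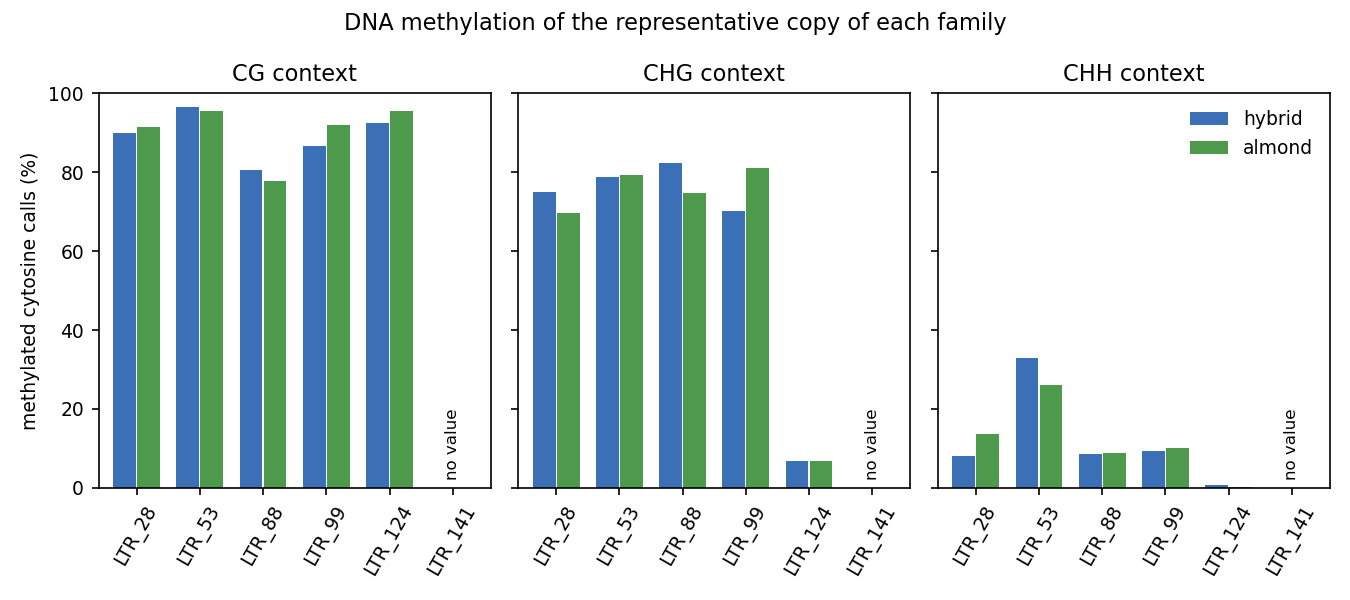
Percentage of methylated cytosine calls (vertical axis, full percentage scale) in the CG, CHG and CHH contexts of the representative copy of each family, hybrid (blue) beside almond (green), both read on the almond genome; each bar is 1 deposited value pooled over 2 replicates. LTR_124 is near 92.4 and 95.5% in CG but under 7% in CHG, and LTR_141 has no value.

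Genes of transcriptional silencing were read from a list of 9 gene models that the study tabulates from these samples, so that it is not an independent choice, of which 8 had enough counts to be tested. Between hybrid and almond 1 was called lower and 0 higher by edgeR, against 1.99% of all 19085 features called lower. At an unadjusted p of 0.05 edgeR had 3 of the 8, with no matching share counted over all features. The median log2 fold change was -0.29, against -0.0024 over all features. The called gene was Prupe.1G332600.1, an RDR1-like RNA-dependent RNA polymerase (an enzyme class that turns single-stranded RNA into the double-stranded precursor of small RNAs), with 0.572 CPM in the hybrid, 3.60 CPM in almond and 2.21 CPM in peach (log2 fold change -2.65, SE 0.73, adjusted p = 0.0404 with edgeR). The other RDR1-like gene, Prupe.1G334500.1, had 0.921 CPM in the hybrid, 3.70 CPM in almond and 3.15 CPM in peach (log2 fold change -2.01, SE 0.62, adjusted p = 0.0642). These models may share reads, which makes their separate values uncertain. The paper, using DESeq2, lists both RDR1-like genes among those significantly lower in the hybrid, whereas edgeR here called only Prupe.1G332600.1, and only against almond. The 3 DNA methyltransferase and 3 demethylase models tested had log2 fold changes of -0.88 to 0.25 in the same comparison. Between hybrid and peach 0 of the 8 were called by edgeR, and likewise 0 against the parental mean. In each of these comparisons 2 passed an unadjusted p of 0.05. Of all features, 5.2% were called higher in the hybrid than in peach and 0.673% below the parental mean. DESeq2 and the other fits were not applied to this list here, and any part of these genes in the TE levels was not tested.

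For each family the TE family and the gene with the most similar profile were looked up, by Pearson correlation of log2 CPM over the 9 libraries among 48 TE families and 19036 genes. These correlations mainly follow the 3 genotype means and are descriptive. LTR_88 and LTR_141 were alike (0.965 for LTR_88, its closest TE family), and LTR_124 was closest to LTR_88 (0.965). LTR_141 itself was closest to TIR_11800 (0.991), a DNA transposon family with 1.76 CPM in the hybrid, 6.78 CPM in almond and 0.0659 CPM in peach. LTR_28, LTR_53 and LTR_99 were closest to LINE families, namely LINE_5725 (0.975), LINE_5760 (0.987) and LINE_12224 (0.990), non-LTR retrotransposons. LINE_12224 resembled LTR_99 in that its hybrid mean of 7.01 CPM was near its almond mean of 8.10 CPM with 0.0438 CPM in peach. The closest genes were Prupe.6G062900.1 for LTR_28 (0.997), Prupe.2G046700.1 for LTR_53 (0.992), Prupe.2G036100.1 for LTR_88 (0.995), Prupe.4G063500.1 for LTR_99 (0.998), Prupe.2G253500.1 for LTR_124 (0.985) and Prupe.2G148500.1 for LTR_141 (0.994). Correlation does not compare the size of a change. Prupe.2G036100.1 had 17.8 CPM in the hybrid, 37.8 CPM in almond and 12.5 CPM in peach, a smaller fall than that of LTR_88. The Prupe.4G063500.1 profile was that of LTR_99 on a higher scale, with 11.1 CPM in the hybrid, 12.2 CPM in almond and 0 in peach.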

How the data were processed

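Leaf RNA and DNA of the hybrid, almond and peach were analysed from the deposited tables. The authors aligned RNA reads (Bowtie2 through RSEM, versions not given in the sources used here) to peach transcript models joined with representative TE copies and kept sense reads. The deposited counts are whole numbers per gene model or TE family, and the authors' log2 values are DESeq2 regularized logarithms of them. 2 records that shared a line were separated. The deposited methylation percent values came from Bismark (0.19.1) and SeqMonk, with hybrid reads aligned to each parental genome, uniquely mapped reads kept and replicates pooled. The peach-genome table holds no copy carrying the element names of the 6 representative copies.

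The 6 families, the gene list and the tests were chosen with earlier results of these data known. Counts were filtered with filterByExpr, scaled by TMM and fitted in edgeR 4.0.16 (R 4.3.3) in 1 quasi-likelihood model of genotype over 9 libraries, with Benjamini-Hochberg adjustment. A feature was called at an adjusted p below 0.05 if its log2 change was also 1 or more in size. The comparison with the linear parental mean used a Wald test with a delta-method error and no minimum fold, and features with no hybrid counts gave no estimate. Intervals are 95%. The features named are the 6 families, the other LTR families, the gene and the TE family most correlated with each of the 6, and the silencing list. DESeq2 1.42.0, other scalings, filters, thresholds, a replicate block and omission of each library were tried. In simulated counts with 200 features changed, the hybrid against almond test recovered 64% with 7 false calls and the parental mean test 72% with 11, over 19085 features. No annotation with matching gene names was used, so leaf marker genes were not checked.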

Additional observations from a re-analysis of the deposited data

How the results depend on the processing

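LTR_88, LTR_124 and LTR_141 were called lower in the hybrid than in almond in all 9 fits that left out 1 library and in every other fit except the test against a minimum fold change (glmTreat), which did not call LTR_124. The count ran from 2 to 4, with LTR_53 added under DESeq2, with the hybrid and almond libraries alone, with a replicate block and without peach replicate 4. Leaving out single libraries moved the hybrid against almond log2 fold change of LTR_99 between -0.23 and 0.10 (without hybrid replicate 1), and the LTR_99 minus LTR_28 difference between -0.012 (without almond replicate 3) and 0.36. Of the 6 families higher than in peach, 4 to 6 were called across alternatives. Of the 2 families called below the linear parental mean, 0 to 2 were called when single libraries were left out, 1 (LTR_88) with the replicate block and 0 at an adjusted p of 0.01. With the parental mean taken on the log2 scale, 3 families were called, all above it (LTR_28, LTR_99 and LTR_141), and log2 ratios turned to 0.61 for LTR_53 and 3.36 for LTR_141, while LTR_88 stood at -0.34. That scale sets the mean of a family with no peach counts by the prior count. Same-numbered hybrid and almond libraries deviated together at correlations of 0.147, -0.0996 and 0.233 across features, so the numbers were not taken as pairing, and hybrid replicate 1 correlated better with almond replicate 2 (0.164) than with its own number. Under the replicate block LTR_53 was called lower than almond (4 families in all), LTR_124 was not called against peach (5 families) and LTR_141 not against the parental mean. Over the representative copies the hybrid minus almond methylation difference averaged -1.24 points for CG, 0.38 points for CHG and 0.19 points for CHH. It averaged -0.70 points for CG and 1.02 points for CHH over all copies of the same element name, and 1.83 points for CHG over copies of at least 50% of the representative length. Depth limits LTR_88, with at most 23 read pairs in a hybrid library.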
